A study of Mus musculus with 12 samples.

Results

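Liver RNA of mice that were fed again after a fast (RF) was set against that of mice that had fed freely throughout (AL, ad libitum), locus by locus. Neither deposited table holds both groups, so the tables were joined through the group they share, the fasted mice (FA). An assembled locus entered the comparison when its FA value agreed within 10% between the tables and its AL or RF level was at least 1 FPKM, a count of sequenced fragments scaled by transcript length and by the number of mapped fragments. These conditions held for 8282 of the 66468 assembled loci, and for 48.97% of the 16913 loci with an AL or RF level of 1 FPKM or more.

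Each group comprised 4 libraries of total RNA, depleted of ribosomal RNA and strand-specific, from the livers of C57BL/6 mice (C57BL/6N males in the methods of the study) aged 17 weeks. All animals were wild type and on control diet, a state the AL mice share with both others. AL mice had food at all times, FA mice had none for 16 h, and the RF group was fasted for the same 16 h before 6 h of renewed feeding. The comparison asks how far the liver transcriptome is back at its fed state 6 h after food returns.

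The liver takes in nutrients from the gut and switches between storing and releasing fuel. Feeding raises insulin, which promotes glucose use, the synthesis of fatty acids and cholesterol and the secretion of proteins, whereas fasting favours the oxidation of fatty acids, the formation of ketone bodies and the production of glucose. Many liver transcripts also follow a daily rhythm set by the circadian clock and by the time of meals.

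Only 1 value per group and locus was deposited, pooled over the 4 libraries, so the depth behind a value is unknown, no SD can be given and no difference below carries a test. No source used here gives a collection time, and effects of refeeding and of the hour of collection cannot be told apart. FA values were identical in both tables, to a relative difference under 1e-06, for 7806 members (94.25%), and the RF value of a locus is that of 1 transcript whereas its AL value covers the locus. The match holds in FA only, so a further transcript absent in FA would count in AL and be missed in RF. That would place RF too low, and counts of lower loci and of incomplete return among lowered loci are open to it. Its size was not tested. All 8549 loci of sufficient level whose FA values did not match were lower in the table with RF, so genes with several abundant transcripts are largely outside the comparison, Fasn among them. Of the members, 1497 lay on the annotated strand of the gene they name and 6242 on the opposite strand (80.66% of those with a known strand), where the strand of a locus was inferred from the numbering of loci. Abundant messenger RNAs were among the opposite loci, such as Hbb-bs, a beta globin gene, at 704 FPKM in AL and Fga at 424. Whether the strands were exchanged in the assembly was not tested, so neither set of loci can be taken as the genes' own RNA, and values on the annotated strand are given as another reading, not a stricter one. Where a gene has several member loci, the one with the highest summed level is given. A higher locus of the same gene can lie outside the comparison, so a value below need not be the level of the gene. In AL the highest locus of Fgb was at 512 FPKM against 271 at its member locus. For Csf1r these levels were 4.74 and 1.21, and for Clec4f 11.6 and 5.63. In AL liver 9 of 10 hepatocyte markers were at 1 FPKM or more, up to 4074, and Alb, which encodes albumin, was listed at 0. None of 5 adipocyte markers, 1 of 9 lymphocyte markers and 1 of 6 pancreas markers (Cela1) reached 1 FPKM. At the limits of the rule, Bnip3l was just inside with an AL level of 1.0001 FPKM and Gm25405 just outside with 0.99997, and the FA values of Dhrs7b differed by 9.9331% and those of the locus naming Gm10516 and Gm37055 by 10.024%.

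Most liver transcripts were near their AL level after refeeding. A log2 ratio below is log2((RF + 0.1)/(AL + 0.1)) of FPKM values, unless another pair of groups is named. It had a median of -0.02 and ran from -0.72 at the 5th percentile to 0.58 at the 95th. Among the 8259 members with no value listed at 0, 7295 (88.33%) lay within 1.5-fold of AL. RF was 2-fold or more higher than AL in 174 loci (2.11%) and 2-fold or more lower in 240 (2.91%). With a limit of 1.5-fold the counts were 409 higher (4.95%) and 555 lower (6.72%). Fasting itself placed 158 loci (1.91%) 2-fold or more above AL and 393 (4.76%) below it, and between RF and FA 314 loci (3.8%) were higher in RF and 152 (1.84%) lower. Protein-coding loci numbered 6679, of which 86 were 2-fold higher and 135 lower in RF than in AL.

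**Figure D1:**
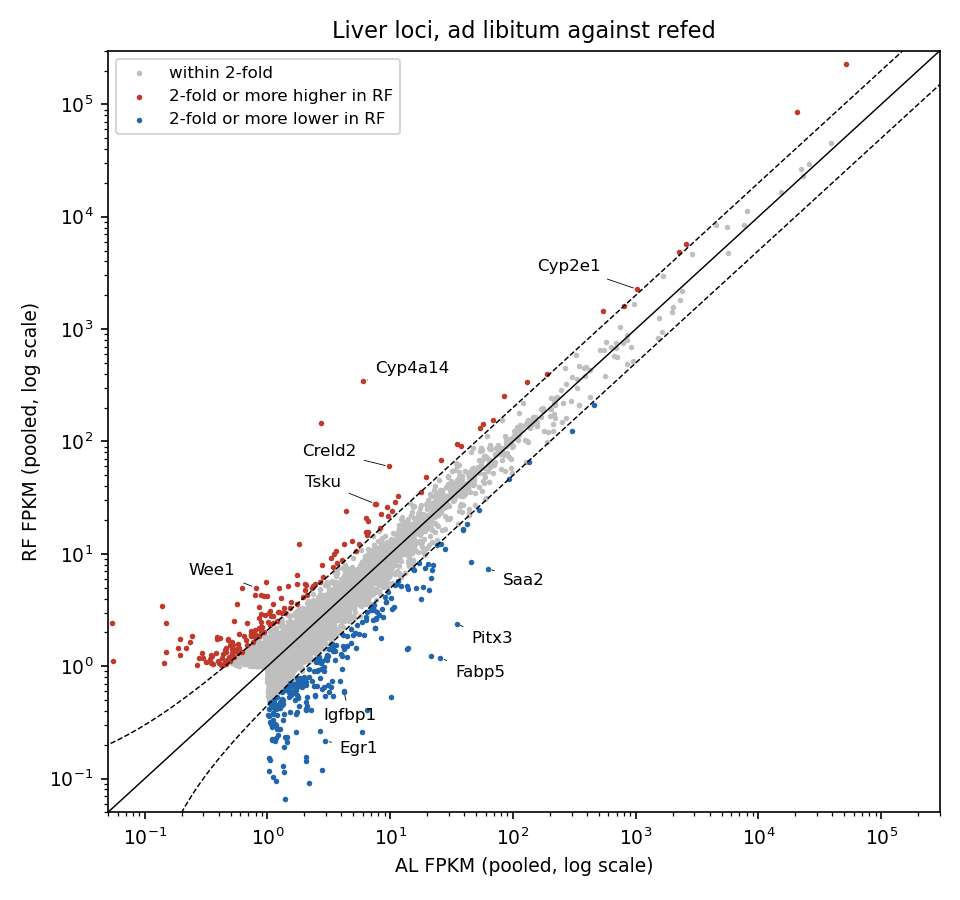
Pooled FPKM of each member locus in AL (x axis, log scale) and RF (y axis, log scale), with equality as a solid line and 2-fold differences after adding 0.1 FPKM as dashed lines. Of 8259 loci, 174 lie above the upper dashed line (red) and 240 below the lower one (blue), with Cyp4a14 at 6.01 FPKM in AL and 345 in RF.

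Chaperones of the endoplasmic reticulum (ER), which fold proteins made for secretion, stood higher in refed than in freely fed liver. Of 16 listed genes 9 were members, of which 4 were 2-fold higher, 5 were 1.5-fold higher and none was 1.5-fold lower. Their median log2 ratio was 0.97, beside -0.02 over the 5958 genes of members with no value listed at 0. Of these 5958, at 1 locus each, 87 were 2-fold higher in RF than in AL and 150 lower. At 1.5-fold 233 were higher and 371 lower. These counts over all genes stand beside those of every list below. Creld2 (ENSMUSG00000023272, chromosome 15, 88819646 to 88826681, GRCm38), which assists folding of secreted proteins, was at 9.8 FPKM in AL, 6.89 in FA and 59.9 in RF. That made RF 6.07-fold higher than AL, a log2 ratio of 2.60, while FA was close to AL. A second locus on the opposite strand of Creld2 was at 1.24 FPKM in AL and 4.94 in RF, a log2 ratio of 1.91. Hyou1, a large ER chaperone (ENSMUSG00000032115, chromosome 9, 44379490 to 44392369), measured 11.5 FPKM in AL, 6.58 in FA and 33 in RF, with a log2 ratio of 1.51. Sdf2l1, a cofactor of ER chaperones (ENSMUSG00000022769, chromosome 16, 17130138 to 17132383), was at 37.7 FPKM in AL, 13 in FA and 91.7 in RF, so that it was more than 2-fold lower in FA and overshot in RF, with a log2 ratio of 1.28. Its second locus gave 1.39. Pdia4, a protein disulfide isomerase, was at 9.53, 6.96 and 21.8 FPKM in AL, FA and RF (log2 ratio 1.19), and Dnajb11, a co-chaperone, at 8.09, 5.75 and 16 (0.97). The loci of Hyou1, Sdf2l1, Pdia4 and Dnajb11 lay on the opposite strand, and the 4 listed genes with a locus on the annotated strand had a median of 0.73 there.

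Other ER chaperones lay within 1.5-fold of AL. Of the 9 members 8 were above AL to some degree, with Dnajb9 the exception. P4hb, another disulfide isomerase, was at 58 FPKM in AL and 74.9 in RF (log2 ratio 0.37), Canx, which encodes calnexin, at 24.3 and 27.9 (0.20), and Dnajb9 at 13.7 and 12.6 (-0.12). The locus that names Hspa5, the gene of the main ER chaperone BiP, was at 1.37, 1.44 and 1.45 FPKM in AL, FA and RF. It spans chromosome 2 from 34674594 to 34916353 and also names Gm24905, so its value may not be that of Hspa5. Regulators of the unfolded protein response and genes of ER-associated degradation, 5 members of 13 listed, had a median of 0.17 and none past 1.5-fold. Xbp1, a transcription factor of that response, was at 28.9 FPKM in AL and 32.5 in RF. The 12 of 24 listed genes of protein translocation and vesicle transport had a median of -0.06, again with none past 1.5-fold.

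Promoters of these genes were read from RefSeq (build GRCm38.p6, a window of 250 bases before each start to 50 after it), which held 3910 of the 5958 genes of members with no value listed at 0. Among the 9 ER chaperones 8 had a promoter. Here and below a gene counts if any of its windows holds an element. The shares are over single windows, so counts of genes and shares of windows are unlike measures. The ER stress element, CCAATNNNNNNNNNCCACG on either strand, stood in 3 of the 8 (Creld2, Hspa5 and Canx), and in 0.119% of all 32851 promoter windows. A second form, ATTGG and CCACG with 1 base of any kind between them, was found in Dnajb11 alone, from base 8 to base 18 after the start, and in 0.0365% of all windows. The 3 promoters with the first form are shown because Creld2 had the highest ratio of the list and the others did not reach 1.5-fold. Each runs 5′ to 3′ over the 250 bases before the start, with the element in capitals. Creld2 is at chr15:88819396-88819645 on the plus strand, Hspa5 at chr2:34771840-34772089 on the plus strand and Canx at chr11:50325674-50325923 on the minus strand.
Creld2: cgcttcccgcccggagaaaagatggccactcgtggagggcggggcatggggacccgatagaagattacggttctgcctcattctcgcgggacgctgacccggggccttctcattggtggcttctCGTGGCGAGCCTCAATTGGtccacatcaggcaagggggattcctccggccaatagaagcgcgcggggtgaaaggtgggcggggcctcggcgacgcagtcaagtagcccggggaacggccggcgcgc
Hspa5: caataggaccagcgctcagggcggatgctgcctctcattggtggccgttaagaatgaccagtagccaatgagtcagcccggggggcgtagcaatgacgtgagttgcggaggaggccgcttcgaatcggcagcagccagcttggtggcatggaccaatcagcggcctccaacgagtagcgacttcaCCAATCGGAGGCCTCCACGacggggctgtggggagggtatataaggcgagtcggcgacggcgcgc
Canx: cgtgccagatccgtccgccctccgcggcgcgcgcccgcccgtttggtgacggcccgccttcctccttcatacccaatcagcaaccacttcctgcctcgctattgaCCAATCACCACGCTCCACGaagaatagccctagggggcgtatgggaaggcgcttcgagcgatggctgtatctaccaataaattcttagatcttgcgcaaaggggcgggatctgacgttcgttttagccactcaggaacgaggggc
The element of Creld2 lies 126 to 108 bases before the start and reads on the reverse strand, that of Hspa5 65 to 47 bases and that of Canx 145 to 127 bases before it. Sdf2l1 and Pdia4 lacked these letters in their windows, which says nothing of the factor.

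Heat shock proteins of the cytosol and mitochondria were also above AL. Among 7 members of 13 listed, 2 were 2-fold and 4 were 1.5-fold higher, none was 1.5-fold lower, and the median was 0.71. Hsp90aa1, a stress-inducible HSP90 (chromosome 12, 110690605 to 110702728), was at 6.61 FPKM in AL, 5.51 in FA and 19.7 in RF, a log2 ratio of 1.56 on the opposite strand. Hspb1, a small heat shock protein, was at 2.02, 2.21 and 4.73 (1.18), Hsph1 at 1.32, 1.63 and 2.52 (0.89) and Hspe1, the mitochondrial chaperonin subunit HSP10, at 33.9, 31.1 and 55.4 (0.71). For these 4 genes FA stayed within 1.5-fold of AL, and RF was the highest of the groups. Bag3 was at 1.66 FPKM in AL and 1.63 in RF, and Hspa8 at 22.3 and 27.4 with its highest level, 36.8, in FA. The heat shock element, here GAA, TTC and GAA with 2 bases of any kind between each on either strand, stood in the windows of Hsph1 and Hspe1, 2 of the 5 members with a promoter, and in 0.603% of all windows. Smaller shifts on 1 side were seen in the 18 proteasome subunits, all above AL but none past 1.5-fold (log2 ratios 0.13 to 0.40), and in the 9 genes of ribosome biogenesis, all above AL with 1 past 1.5-fold (Rrp12, 0.68 FPKM in AL and 1.14 in RF).

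**Figure D2:**
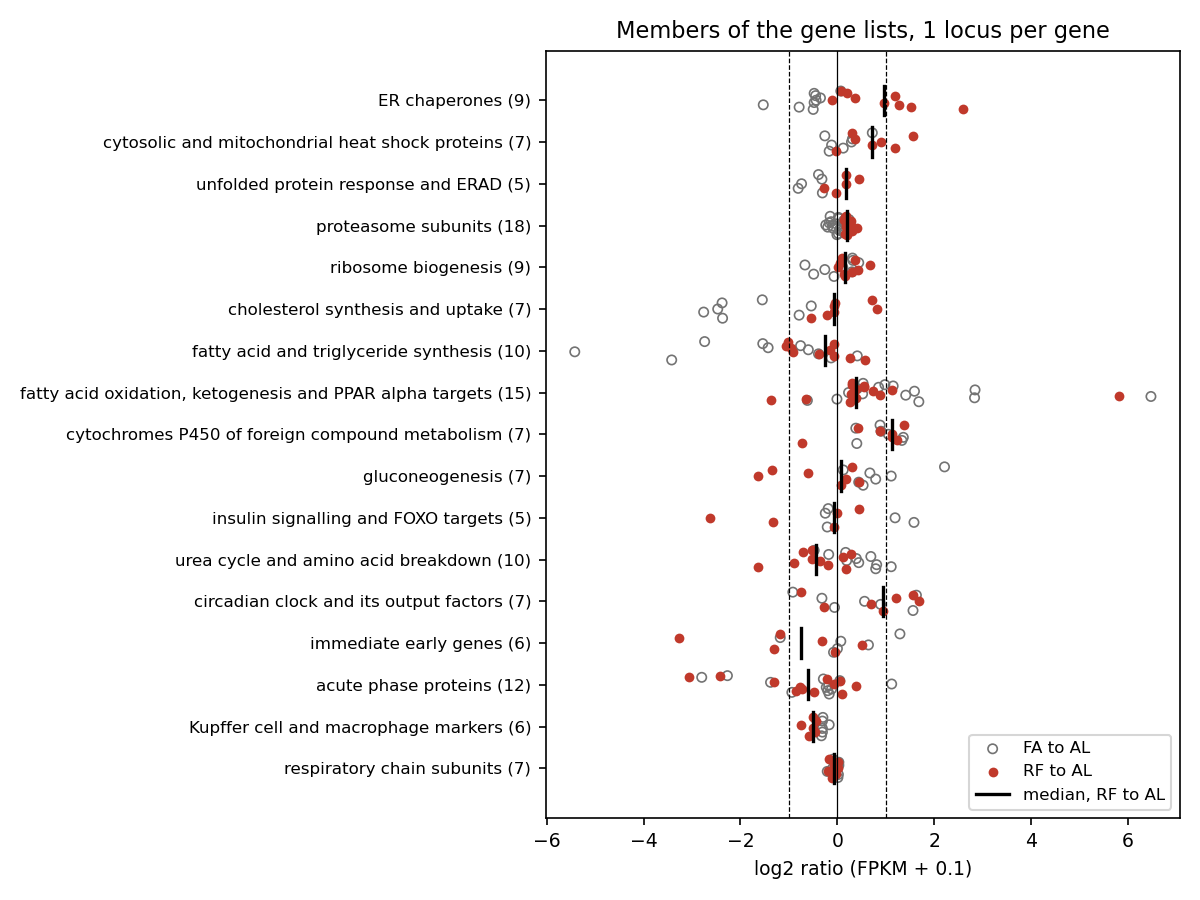
Log2 ratios to AL of the members of 17 gene lists, 1 locus per gene, after adding 0.1 FPKM; red points are RF, open circles FA, black bars the median for RF, and the number of members stands in brackets. ER chaperones have a median of 0.97 in RF, cytochromes P450 1.13 and acute phase proteins -0.62.

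For loci that the fast had moved 2-fold or more, the RF level was placed in 1 of 3 classes. A full return means RF within 1.5-fold of AL, an incomplete return RF 1.5-fold or more off AL on the side of FA, and an overshoot RF 1.5-fold or more off AL on the other side. Of 393 loci lowered by the fast, 163 (41.5%) had returned fully, 203 (51.7%) incompletely and 27 (6.87%) had overshot. Of 158 loci raised by the fast, 54 (34.2%) had returned fully, 97 (61.4%) incompletely and 7 (4.43%) had overshot. With a margin of 2-fold in place of 1.5-fold full return was the larger class on both sides, with 239 full against 143 incomplete among lowered loci and 89 against 63 among raised loci. The classes of FA and RF share the AL value of each locus, which alone ties a response to its return. An error in the pooled FA value of a locus would also read as a response with a return, and no spread is available to judge it. On the log2 scale the median locus had covered 59.6% of the way back if lowered (quartiles 24.8% and 91.7%) and 43.5% if raised (12.2% and 85%). Of the 203 lowered loci with an incomplete return, 79 had moved 1.5-fold or more from FA toward AL, 107 lay within 1.5-fold of FA, and 17 lay 1.5-fold or more beyond FA. For the 97 raised loci these numbers were 21, 67 and 9. On the annotated strand the full return was less frequent, with 20 of 72 lowered loci (27.8%) and 9 of 34 raised loci (26.5%), against 93 of 213 (43.7%) and 35 of 87 (40.2%) on the opposite strand.

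**Figure D3:**
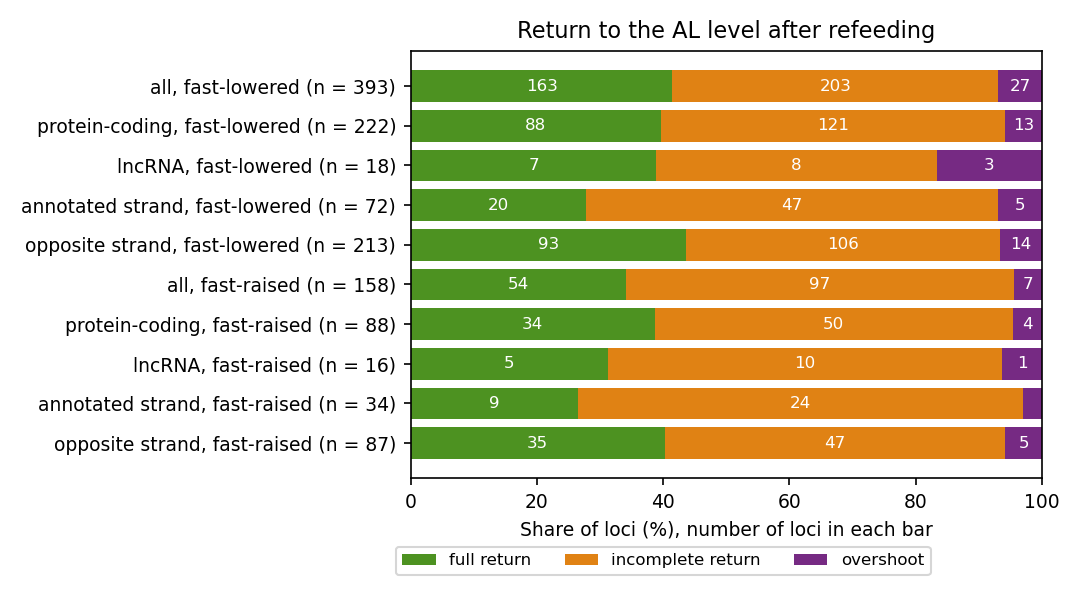
Share of loci (%) with full return, incomplete return or overshoot in RF, among loci moved 2-fold or more between FA and AL, with the number of loci in each part of a bar. At the 1.5-fold margin incomplete return is the largest class among all lowered (203 of 393) and all raised loci (97 of 158), whereas at a 2-fold margin full return is (239 and 89).

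Among transcripts raised by the fast, some of fatty acid oxidation and several cytochromes P450 were still above AL after 6 h of food. Of 15 members of the list of fatty acid oxidation, ketogenesis and targets of the nuclear receptor PPAR alpha, 2 were 2-fold higher and 1 was lower, 4 were 1.5-fold higher and 2 lower, and the median was 0.38. Of its 7 members raised 2-fold by the fast, 4 had returned incompletely and 3 fully. Cyp4a14, a fatty acid omega-hydroxylase (ENSMUSG00000028715, chromosome 4, 115486200 to 115496142), was at 6.01 FPKM in AL, 542 in FA and 345 in RF. RF was 56.5-fold above AL, a log2 ratio of 5.82, and a locus opposite to it gave 5.71. The bounds of the Cyp4a14 locus, chromosome 4 from 115452604 to 115622510, run well past the gene, so its value may include other RNA. Cyp4a genes are also near-identical copies, so the share of each is uncertain. Acot1, which splits acyl-CoA in the cytosol, was at 2.34, 17.4 and 5.21 FPKM (1.12), and Ehhadh, a peroxisomal enzyme of fatty acid oxidation, at 61.3, 163 and 112 (0.87). Angptl4, whose secreted product inhibits lipoprotein lipase, had returned, with 2.38 FPKM in AL, 17.5 in FA and 3.15 in RF. The carnitine transporter Slc22a5 had as well, at 0.972, 3.34 and 1.17. Pdk4, which restrains pyruvate oxidation, was the member 2-fold lower, at 1.34 FPKM in AL, 0.834 in FA and 0.457 in RF. Plin2 was lower by 1.5-fold, at 9.71, 9.65 and 6.18 FPKM (-0.64).

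Enzymes of foreign compound metabolism were mostly above AL. Of 7 members among 19 listed cytochromes P450 and their regulators, 4 were 2-fold higher than AL, 5 were 1.5-fold higher, 1 was 1.5-fold lower, and the median was 1.13. Cyp2e1, which oxidizes ethanol and other small molecules (ENSMUSG00000025479, chromosome 7, 140763739 to 140774987), was at 1031 FPKM in AL, 2654 in FA and 2260 in RF (1.13). Cyp3a11 was at 6.64, 16.8 and 15.6 (1.22), the locus that names both Cyp2a5 and Cyp2a22 at 26, 48.1 and 67.9 (1.38) and Cyp2c38 at 5.52, 11.5 and 12.2 (1.13). In these enzymes RF thus lay near or above the fasted level. The bounds of the Cyp3a11 locus, chromosome 5 from 145694049 to 145880139, run well past the gene, so its value may include other RNA. The steroid hydroxylase Cyp17a1 was the lower member, at 2.14 FPKM in AL and 1.25 in RF. Outside the list, Fmo2, a flavin monooxygenase, was at 0.969, 3.34 and 5.61 FPKM (2.42), the organic anion transporter Slco1a4 at 1.74, 7.41 and 5.38 (1.57, and 0.72 at its second locus) and Apoa4, an apolipoprotein of triglyceride-rich particles, at 8.41, 33.7 and 22.8 (1.43).

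Other fasting-raised transcripts were back at AL. Mt2, a metallothionein that binds zinc and copper (ENSMUSG00000031762, chromosome 8, 94172664 to 94173568), was at 2.84 FPKM in AL, 89.4 in FA and 2 in RF, and Mt1 at 2.84, 43.9 and 2.03. The pair are close copies, so reads may be split between them. Pck1, the enzyme that commits oxaloacetate to glucose synthesis (chromosome 2, 173153048 to 173159273), was at 75.7 FPKM in AL, 351 in FA and 93.9 in RF, read from the opposite strand. The bounds of its locus run on to 173276533, past the gene.

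A few transcripts raised by the fast fell below AL after refeeding. Igfbp1, an insulin-repressed binding protein of insulin-like growth factors (ENSMUSG00000020429, chromosome 11, 7197782 to 7202546), was at 4.19 FPKM in AL, 9.7 in FA and 0.598 in RF, a log2 ratio of -2.62. Got1, an aspartate aminotransferase, was at 8.68, 18.8 and 2.72 (-1.64), Trib3, a pseudokinase that can inhibit AKT, at 1.81, 5.61 and 0.662 (-1.32), and Junb, a subunit of the transcription factor AP-1, at 5.37, 13.3 and 2.31 (-1.18). G6pc, the catalytic subunit of glucose-6-phosphatase (chromosome 11, 101367561 to 101377903), was at 28.1 FPKM in AL, 30.5 in FA and 11 in RF. RF was 2.54-fold below AL (-1.35) although FA was near AL, and a second G6pc locus on the annotated strand gave -1.67. Genes of gluconeogenesis thus went several ways, with 2 of 7 members 2-fold lower, 3 of 7 1.5-fold lower, none 1.5-fold higher, 4 of 7 above AL and a median of 0.08. Only 2 of its genes, G6pc and Gpt, had a locus on the annotated strand, with a median of -0.61. Ppargc1a, a coactivator of the fasting response, was at 1.96, 3.18 and 1.25 FPKM (-0.61).

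**Figure D4:**
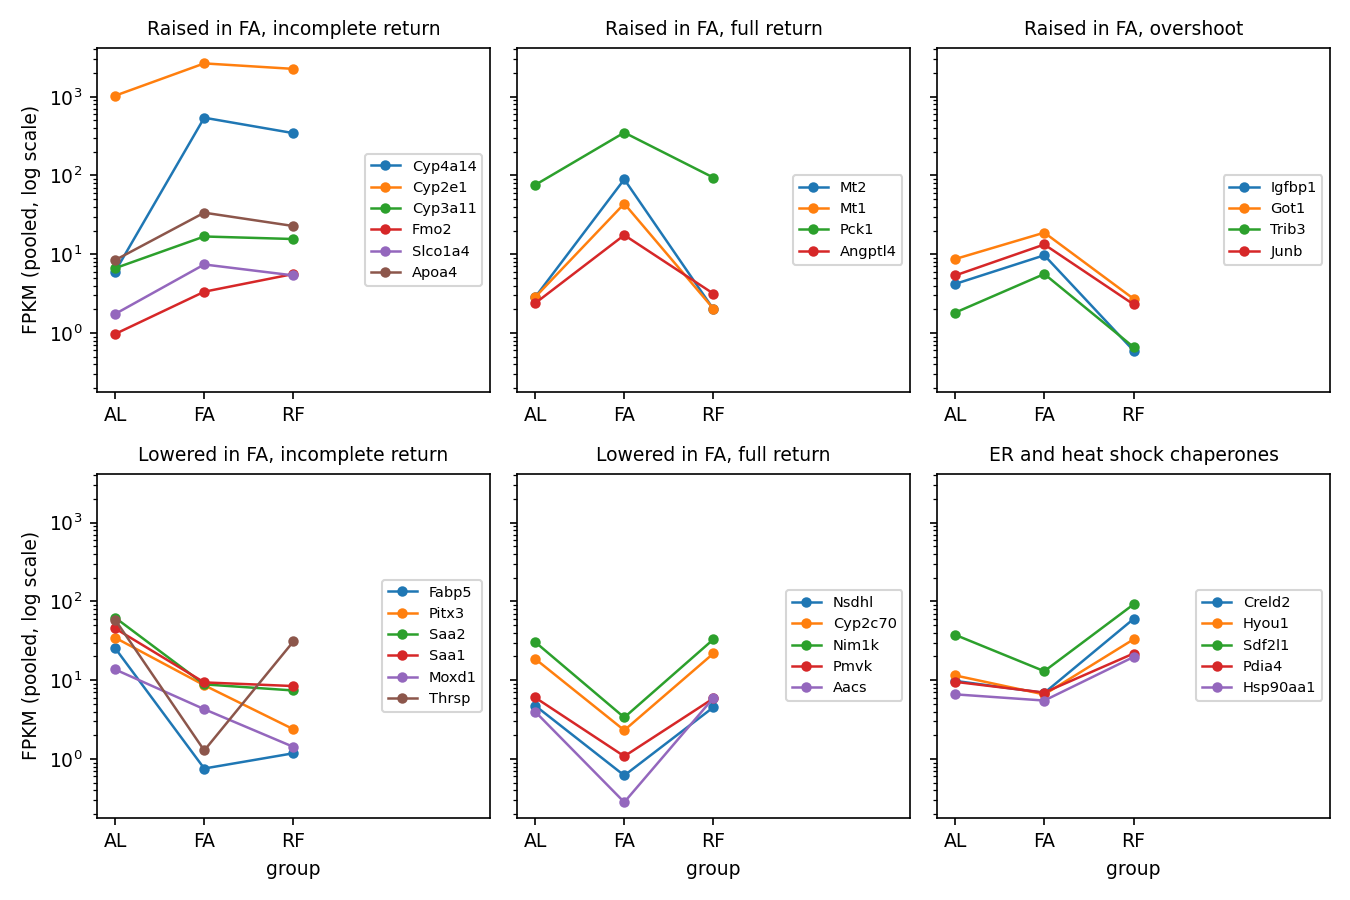
Pooled FPKM (log scale) in AL, FA and RF for 30 named genes in 6 panels, grouped by fasting response and return class, and ER and heat shock chaperones last; lines join the groups of 1 gene. Cyp4a14 is at 345 FPKM in RF against 6.01 in AL, Mt2 at 2 against 2.84, Igfbp1 at 0.598 against 4.19 and Creld2 at 59.9 against 9.8.

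Lipid synthesis, which falls in fasting, had come back unevenly. In cholesterol synthesis 7 of 25 listed genes were members, and all were within 2-fold of AL, with 2 of them 1.5-fold higher and a median of -0.07, beside a median FA to AL log2 ratio of -2.37. Msmo1, a sterol demethylase, was at 23.1 FPKM in AL, 4.09 in FA and 40.6 in RF (0.81), and Mvk, mevalonate kinase, at 0.908, 0.245 and 1.56 (0.72), both overshoots. Pmvk, phosphomevalonate kinase, was at 6.03, 1.08 and 5.88 FPKM, Nsdhl, a sterol dehydrogenase, at 4.76, 0.616 and 4.54, and Sc5d, a sterol desaturase, at 64.2, 12.3 and 44. These 3 count as full returns, although the second Nsdhl locus, at 1.54, 0.194 and 2.81 FPKM (0.83), overshot. In the synthesis of fatty acids and triglycerides 10 of 27 were members, of which 2 were 2-fold lower, 4 were 1.5-fold lower and none was 1.5-fold higher, with 2 above AL and a median of -0.26. Acly, ATP citrate lyase, was at 10.9 FPKM in AL, 1.54 in FA and 5.27 in RF (-1.03), and Elovl5, a fatty acid elongase, at 11.3, 6.62 and 5.36 (-1.06). A second Elovl5 locus was at 2.34, 0.691 and 1.73 (-0.42), within 1.5-fold of AL. Thrsp, which promotes lipogenesis (chromosome 7, 97412938 to 97417730), was at 58.8, 1.28 and 31.1 FPKM (-0.92) and at 19.2, 0.485 and 9.86 at its locus on the annotated strand (-0.96). Acaca, acetyl-CoA carboxylase, had returned, with 2.84, 0.915 and 2.7 FPKM, and so had Aacs, acetoacetyl-CoA synthetase, at 3.99, 0.282 and 5.96. The 7 members of glycolysis and fructose use were all within 1.5-fold of AL.

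Other transcripts lowered by the fast were still far below AL, some of them partly recovered from FA and some lower still. Fabp5, a fatty acid binding protein (ENSMUSG00000027533, chromosome 3, 10012548 to 10016607), was at 25.6 FPKM in AL, 0.755 in FA and 1.18 in RF. RF was 20-fold below AL (-4.32), and a second locus gave -3.70. Pitx3, a homeodomain transcription factor (chromosome 19, 46135685 to 46148326), was at 34.7, 8.62 and 2.38 FPKM (-3.81), and Moxd1, a monooxygenase, at 13.7, 4.28 and 1.42 (-3.18), so that both were lower in RF than in FA. The water channel Aqp8 was at 17.7, 2.03 and 4 (-2.12), the glutathione transferase Gstm3 at 21.4, 2.31 and 6.06 (-1.80), and Serpina12, which encodes vaspin, at 20.6, 5.31 and 4.81 (-2.08).

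Acute phase proteins, which the liver secretes in inflammation, were lower in part. Of 12 members among 16 listed, 3 were 2-fold lower, 6 were 1.5-fold lower, none was 1.5-fold higher, and the median was -0.62. The 3 above AL were Crp, C-reactive protein, at 13, 11.4 and 16.9 FPKM (0.38), Itih4 (0.10) and Saa4 (0.05). Saa2 (ENSMUSG00000057465, chromosome 7, 46751790 to 46754313), a serum amyloid A, was at 62.4 FPKM in AL, 8.85 in FA and 7.4 in RF (-3.06), and its near-identical neighbour Saa1 at 45.5, 9.37 and 8.42 (-2.42), so the share of each is uncertain. Both loci were opposite to their gene. The fibrinogen chains were lower in RF alone, with Fga at 424, 362 and 248 FPKM (-0.77), Fgb at 271, 249 and 161 (-0.74) and Fgg at 945, 822 and 524 (-0.85). The bounds of the Fgg locus, chromosome 3 from 82876705 to 83017064, run well past the gene. Markers of Kupffer cells, the macrophages of the liver, were all below AL in their 6 members of 11 listed, from -0.75 (Cd5l, 4.71 FPKM in AL, 4.16 in FA and 2.77 in RF) to -0.45 (Csf1r), of which 1 was past 1.5-fold. The summed level of these 6 member loci was 26.4 FPKM in AL, 21.5 in FA and 17.8 in RF. All 6 lay opposite to their genes, and the 1 locus of these markers on the annotated strand, of C1qa, was at -0.12. Their part in other differences was not tested. In bulk tissue fewer cells of a type and less RNA per cell cannot be told apart.

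Clock genes and their output factors differed from AL. Of 7 members among 19 listed, 3 were 2-fold higher, 5 were 1.5-fold higher, 1 was 1.5-fold lower and the median was 0.95. Per1 and Cry1 encode repressors of the clock and Arntl encodes its activator BMAL1. Per1 was at 0.587, 2.03 and 1.94 FPKM (1.57), Cry1 at 0.525, 0.401 and 1.35 (1.21), Ciart, another repressor, at 1.23, 3.82 and 2.48 (0.95) and Arntl at 2.38, 1.21 and 1.38 (-0.75). Wee1, a cell cycle kinase under clock control (chromosome 7, 110122046 to 110143286), was at 0.8, 1.4 and 5 FPKM (2.50), and its second locus gave 2.16. The E-box CACGTG, the site of the clock activator, stood in the windows of 3 of the 6 members with a promoter (Per1, Cry1 and Ciart) and in 7.15% of all windows. The promoters of Cry1 and Ciart are shown with it in capitals, over the 250 bases before the start, at chr10:85185055-85185304 and chr3:95882229-95882478, both on the minus strand.
Cry1: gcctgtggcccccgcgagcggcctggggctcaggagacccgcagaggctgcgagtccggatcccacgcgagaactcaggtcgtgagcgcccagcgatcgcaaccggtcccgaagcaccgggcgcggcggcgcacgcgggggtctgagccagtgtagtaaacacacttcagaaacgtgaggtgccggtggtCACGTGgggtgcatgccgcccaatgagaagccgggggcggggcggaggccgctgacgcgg
Ciart: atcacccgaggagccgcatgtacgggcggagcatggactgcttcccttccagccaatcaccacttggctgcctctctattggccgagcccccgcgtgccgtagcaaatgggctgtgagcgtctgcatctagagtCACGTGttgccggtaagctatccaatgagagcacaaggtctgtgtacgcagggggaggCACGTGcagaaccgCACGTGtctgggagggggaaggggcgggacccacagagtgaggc
Cry1 held 1 copy, 60 to 55 bases before the start, and Ciart 3, from 116 to 39 bases before it. The Per1 match was in a window of an internal start, at chr11:69098699-69098948, inside the gene.

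Refed liver also differed from AL at loci where FA was near AL. Of the 174 loci 2-fold higher in RF than in AL, FA had been 2-fold higher in 63, 1.5-fold to 2-fold higher in 25, within 1.5-fold of AL in 68 and 1.5-fold or more lower in 18. Of the 240 lower loci these numbers were 143 lower by 2-fold, 40 by 1.5-fold to 2-fold, 49 within 1.5-fold and 8 on the other side. Ces1d, a carboxylesterase with close paralogs, was at 131, 160 and 336 (1.36), the transporter Slc16a12 at 3.49, 5.18 and 10 (1.49), 8430408G22Rik at 18.4, 14.5 and 5.05 (-1.84) and Btg2, an early response gene, at 3.54, 3.53 and 1.37 (-1.31). In other genes FA was itself 1.5-fold or more off AL. Tsku, a secreted proteoglycan (chromosome 7, 98350668 to 98361328), was at 7.62 FPKM in AL, 4.67 in FA and 27.8 in RF (1.85). Col27a1, a fibrillar collagen, was lowered and then overshot, at 6.3, 2.71 and 15.7 FPKM (1.30), whereas Lpl, lipoprotein lipase, at 6.16, 3.79 and 1.89 (-1.65), and Egr1, an immediate early transcription factor, at 2.95, 1.25 and 0.217 (-3.27), went further down from FA to RF. Of 6 immediate early members 3 were 2-fold lower and none was 1.5-fold higher.

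A second member locus, where a gene had one, gives a reading in other assembled RNA of the same gene and the same libraries. Among 1401 such genes, the main locus was 2-fold higher in RF in 22, of which 21 had their second locus 1.5-fold or more higher and 15 at least 2-fold. It was 2-fold lower in 28, of which 25 had the second locus below AL, 23 by 1.5-fold and 20 by 2-fold.

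Long non-coding RNAs, which the study set out to follow through nutrient states, centred near AL but spread more widely than mRNAs. Of 370 lncRNA loci 11 (2.97%) were 2-fold higher and 10 (2.7%) lower. Over all members these shares were 2.11% and 2.91%, and over protein-coding loci 1.29% and 2.02%. The median log2 ratio of lncRNA loci was -0.01 beside -0.02 for protein-coding loci. The median size of the ratio was 0.224 beside 0.157, and 0.171 over all members. Of 18 lowered by the fast 7 had returned fully, 8 incompletely and 3 had overshot, and of 16 raised 5, 10 and 1. Antisense loci made up 218 of the 370, of which 5 were 2-fold higher and 4 lower. With the strands unsettled, their values may include RNA of coding genes they overlap, which was not tested. C730036E19Rik, a liver lncRNA the study singled out (ENSMUSG00000102095, chromosome 1, 151138034 to 151142345), was at 9.36 FPKM in AL, 10.5 in FA and 25.9 in RF, a log2 ratio of 1.46 on the opposite strand and 0.83 at its annotated locus. It belongs to a list of 7 that the study chose as liver-enriched and linked to obesity and also followed in these feeding states, so the list is not independent evidence of a direction. Of its other members, 9030616G12Rik was at 4.13, 6.82 and 2.23 FPKM (-0.86), 4833411C07Rik at 1.35, 3.79 and 1.85 (0.42) and 9030622O22Rik at 8.75, 9.14 and 11.3 (0.37). Gm10680 was at 54.1, 217 and 131 FPKM (1.28). It is antisense to Apoa4 and its locus has the bounds of the Apoa4 locus (chromosome 9, 46240696 to 46243529), so RNA of the pair cannot be told apart here. 1810014B01Rik was at 35.1, 27.6 and 94.4 FPKM (1.42) and 1810008I18Rik at 41.8, 11.4 and 18.5 (-1.17). Of 9 listed small MAF transcription factors, partners and regulators only 3 were members, and these 3 differed little between AL and RF. Mafg and Nfe2l1 were not among them. Nfe2l2, which encodes NRF2, was at 4.14, 4 and 4.16 FPKM, Nfe2 at 1.66, 1.46 and 1.68, and Bach1 at 3.05, 4.03 and 3.23.

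Several groups showed no locus past 1.5-fold. All 7 respiratory chain subunits lay between -0.19 and 0.01, the 11 aminoacyl-tRNA synthetases between -0.44 and 0.30, and the 6 splicing and cold-inducible RNA-binding proteins between -0.31 and 0.09. In the urea cycle and amino acid breakdown 3 of 10 members were 1.5-fold lower, with Got1 2-fold lower. Ass1, which joins citrulline and aspartate, was at 26.6, 30 and 16.2 FPKM (-0.71), and Hal, histidine ammonia lyase, at 15.4, 20.9 and 8.27 (-0.89).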

How the data were processed

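The authors trimmed reads with flexbar, removed ribosomal reads with Bowtie2 2.2.9, aligned the rest to the mouse genome (GRCm38/mm10, Ensembl 90) with STAR 2.6.0c and assembled and quantified them with Cufflinks and Cuffdiff 2.2.1. The deposited FPKM values are 1 per group, pooled by Cuffdiff over 4 libraries, for FA and AL per locus in one table and for RF and FA of 1 transcript per locus in the other. The tables also hold the authors' own fold changes, test statistics, p-values and q-values for FA against AL and RF against FA, which were not used. None exists for RF against AL.

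Tables were joined on locus identifier with python 3.11.15, pandas 2.3.3 and numpy 2.4.6, and figures drawn with matplotlib 3.10.9. Ratios were taken after adding 0.1 FPKM, and loci listed at 0 in AL or RF (23) were left out of ratios. Strand was inferred from the numbering of loci. The join and classes were checked on simulated data. Named were, per list, up to 6 members by the size of the RF to AL ratio and 4 others by the size of the FA to AL ratio, the 15 highest and 15 lowest protein-coding genes at 5 FPKM or more, 10 genes per return class, the 8 highest and 8 lowest lncRNAs, and all members of the small MAF and study lncRNA lists. Members and lists were chosen with earlier results of these data known. Alternatives varied the pseudocount, the floor, the FA tolerance, the strand, the choice of locus, the scaling and the fold limits. Some named results are not reported here.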

Additional observations from a re-analysis of the deposited data

How the results depend on the processing

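Counts are given as loci 2-fold higher and lower in RF than in AL (174 and 240), then full, incomplete and overshooting loci among those lowered (163, 203 and 27) and raised (54, 97 and 7) by the fast. With 1 FPKM added before the ratio they were 73 and 100, then 86, 108 and 11, with 47 raised incomplete. With a floor of 5 FPKM they were 58 and 72, then 62, 69 and 12, then 15, 40 and 4. With no floor they were 825 and 977, then 505, 815 and 53, then 673, 492 and 49, so that full return was then the more frequent class among raised loci. On the annotated strand alone they were 27 and 58, then 20, 47 and 5, then 9, 24 and 1. Among genes with 1 annotated transcript they were 52 and 105, then 37, 86 and 10, then 16, 39 and 3. With 1 locus per gene they were 85 and 148, then 89, 122 and 15, with 54 raised incomplete. Loci naming 1 gene gave 113 higher. A 4-fold fasting response gave 36, 70 and 8 lowered and 7, 22 and 0 raised. A margin of 2-fold gave 239, 143 and 11 lowered and 89, 63 and 6 raised, so that full return was then the more frequent class on both sides. A limit of 1.5-fold gave 409 higher and 555 lower. The floors, strand, transcript, gene name and locus settings keep other numbers of loci, while the other settings keep the same loci. A pseudocount of 0.01, FA tolerances of 2% and 25%, rescaling RF by the FA ratio and centring moved no count by more than 1.5 times. On the annotated strand alone the median of the glucocorticoid list changed sign, from 0.63 over 6 genes to -0.48 over 3, and medians nearer 0 also did, such as gluconeogenesis from 0.08 over 7 to -0.61 over 2 and bile acids from 0.28 over 5 to -0.68 over 3. Of the values of single genes 14 moved, 1186 did not, and none past 2-fold changed sign. No paired analysis was possible because the values are pooled over libraries, which also allows no estimate of error and no setting without a library. The depth behind each value is unknown.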

Other observations

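Genes of further pathways lay on both sides of AL. Of 5 bile acid members 1 was 2-fold lower, and the median log2 ratio of RF to AL was 0.28. Nr0b2, the repressor SHP of bile acid synthesis, was at 3.4 FPKM in AL, 3.54 in FA and 1.37 in RF, Cyp7a1, the rate-limiting enzyme, at 31.5, 40 and 44.5, and Nr1h4, the bile acid receptor FXR, at 8.4, 9.72 and 13.3. Among 6 members of the glucocorticoid-responsive list 2 were 2-fold higher, Per1 and Zbtb16, and the median was 0.63, but -0.48 over the 3 with a locus on the annotated strand. In the growth hormone axis Igfbp2 was at 34.2, 90.5 and 64.9 FPKM and Igfals, which stabilizes circulating IGF complexes, at 1.11, 0.991 and 2.11. The median of its 6 members was 0.13. Among 3 members of the ATF4 list 2 were 2-fold lower, with Asns, asparagine synthetase, at 2.8, 1.17 and 1.12 FPKM. Of 4 members for metals and iron, Hamp2, a hepcidin, was at 13.7, 7.34 and 5.19 FPKM while Hamp, its close paralog, was at 747, 716 and 1040. Both have the same locus bounds (chromosome 7, 30916983 to 30989726), so RNA of the pair may not be fully told apart. Of 8 secreted regulators Fst, follistatin, was 2-fold lower at 1.36, 0.594 and 0.114 FPKM, and Angptl8 was a full return at 14.6, 3.85 and 17.2. None of 7 interferon-stimulated genes and none of 5 autophagy genes passed 1.5-fold. Other cell type markers included 3 globin genes below AL, from Hbb-bs at 704, 527 and 563 FPKM to Hba-a2 at 133, 97.2 and 98.7, and Acta2, of smooth muscle and activated stellate cells, at 1.51, 0.201 and 0.817.

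Loci naming small RNAs and the most abundant loci are given as values chosen after they were seen. Over all members 2.11% of loci were 2-fold higher in RF than in AL and 2.91% lower. Of 31 loci naming snoRNAs 9 (29%) were 2-fold lower in RF than in AL and 2 higher, with a median of -0.51. Snora78 was at 9.21 FPKM in AL, 1.5 in FA and 3.73 in RF, and Gm24500 at 2.76, 2.83 and 7.92. Several of the lower loci were at low levels, such as Gm26080 at 3.15, 0.586 and 0.59. A locus naming a snoRNA can be long, as was Gm23479 at 256121 bases, left out because it was listed at 0 in AL. Values of such loci may thus include other RNA. Of 134 loci at 100 FPKM or more in AL or RF, 15 (11.2%) were 2-fold higher in RF than in AL and 3 (2.24%) lower. A locus could enter by its RF level alone, as both loci of Cyp4a14 did, or by its AL level alone, as Acsl5 did. The choice can thus favour either count. Several of the higher loci name no Ensembl gene, such as 1 of 49 bases at 51931 FPKM in AL and 230343 in RF. The 3 lower loci were Dbi, an acyl-CoA binding protein, at 460, 171 and 209 FPKM, Ugt2b1, a glucuronosyltransferase, at 301, 152 and 124, and Acsl5, an acyl-CoA synthetase, at 135, 56.7 and 65.9. Of 532 loci with no Ensembl gene 59 (11.1%) were 2-fold higher and 56 (10.5%) lower. One on chromosome 9 (77811571 to 77851921, GRCm38) was at 5.9 FPKM in AL, 0.374 in FA and 0.26 in RF.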
